A study of Mus musculus with 15 samples.

Results

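Circular RNAs are made when the spliceosome joins the end of an exon back to the start of the same or an earlier exon. The ring has no free ends and no poly(A) tail, so it resists the enzymes that degrade linear RNA from its ends, and circles are known to accumulate in cells that divide rarely. Most rings consist of coding exons of a host gene that also makes a linear mRNA, and the 2 products compete for the same exons.

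The circles described here were the exonic circular RNAs whose host gene had exactly 1 exonic circle in the deposited table. The table listed 11929 circular RNAs, of which 10810 were exonic circles of 3836 host genes and 1119 were made from introns. Single-circle hosts gave 1801 circles, and hosts with several gave the other 9009. All 1801 hosts were also present in the linear RNA table, and 154 of them had an intronic circular RNA as well.

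The libraries were made, per the labels, from ribosome-depleted total RNA of kidney from 15 male C57BL/6 mice (C57BL/6J in the study's methods), with 5 mice aged 3 months, 5 aged 12 months and 5 aged 24 months. Age was the only difference between the groups that the labels give, and 1 library was made per mouse. The study's methods describe oligo(dT) selection of mRNA for its lncRNA and mRNA libraries instead, which would deplete RNA without a poly(A) tail, and the sources used here do not settle the difference. Genes of the proximal tubule and loop of Henle were abundant in every mouse: the lowest summed FPKM (fragments scaled by transcript length and library size) was 370 for Lrp2 and 689 for Umod. The podocyte gene Nphs1 lay between 4.24 and 7.55 FPKM. The summed estimated counts of all circular RNAs ranged from 6.97e+06 to 9.89e+06 per mouse. At 3 months, between 78 and 98 of the 1801 circles had a count under 10, against 48 to 62 at 12 months and 45 to 60 at 24 months. The library total behind the circular FPKM values was between 3.31e+07 and 3.63e+07 at 3 months, between 3.33e+07 and 4.63e+07 at 12 months and between 3.62e+07 and 4.38e+07 at 24 months, so depth moved with age.

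The estimated counts cannot be read as reads across the back-splice join. They were not whole numbers in 83.6% to 94.6% of the values of a mouse, and they were close to the level of the linear RNA. The median ratio of circular FPKM to the summed FPKM of the host gene lay between 1.47 and 1.63 over the 15 mice. Against the linear transcripts that contain the same exons it lay between 2.45 and 2.74. This last ratio fell with exon length: its median was 3.34 in the 449 circles with the shortest exons (median 100.4 bases per exon), 2.62 and 2.43 in the next groups by exon length, and 1.91 in the 448 circles with the longest exons (median 275.8 bases). Reads of a circle and reads of the linear RNA over the same exons therefore cannot be told apart in these values, and every level below is an estimate for the exons of the circle.

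The back-splice join is the sequence that a circle has and its linear host does not. The joins of 8 circles on which the results turn are shown from the annotated exons (GENCODE M21, GRCm38), with the last 15 bases of the circle's last exon in lower case and the first 15 bases of its first exon in capitals:
Hspa8, chr9:40801918-40804363, plus strand, exons 2 to 7 of 9: tcaccaatgacaaggCAACCATGTCTAAGG
Msi2, chr11:88480006-88590147, minus strand, exons 6 to 7 of 14: ccaacaggcacagagATGGTCACAAGAACA
Ano4, chr10:88992875-89068231, minus strand, exons 7 to 16 of 27: atgctgctgaatgtgGATCGATAAACAAAT
Brca2, chr5:150535439-150557245, plus strand, exons 9 to 20 of 27: ttaaagaccacgaagACTTTGAAAAGCTGT
Syt1, chr10:108583874-108902315, minus strand, exons 3 to 10 of 12: tgggtggcttatctgGAAAAGAAGACTTTG
Npas2, chr1:39287468-39300733, plus strand, exons 3 to 5 of 21: cttggacatttaccgAGCCTCTCGAAATAA
Ncapd2, chr6:125183914-125189908, minus strand, exons 2 to 9 of 32: catctggatggagagGTGAACCAGGGGGAG
Ubxn2b, chr4:6202292-6208943, plus strand, exons 3 to 6 of 8: gcaaaaacttggaagGCTTTATTCAGGTGA

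The Hspa8 circle has the highest mean CPM (the count scaled to the library total). Msi2 has the highest mean circular FPKM and stands far above its host. Ano4, Brca2, Syt1 and Npas2 are among the circles with the smallest p at 24 against 3 months. Ncapd2 and Ubxn2b were called for a difference from their hosts, and these calls were unstable. Over the 1738 circles of single-circle hosts whose exon sequences were read, 57.2% of the last exons ended in AG and 46.6% of the first exons began with G, compared with 58.2% and 47% of 8662 circles of other hosts.

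Single-circle hosts gave short circles that began early in the transcript. All exons of the deposited row matched the named isoform for 1796 of the 1801 circles. The median circle held 3 exons (quartiles 2 and 5, range 1 to 52) and 501.5 exonic bases (quartiles 344 and 807), and spanned 4.90 kb of genome. Circles of hosts with several had medians of 4 exons, 699 bases and 12.2 kb. The second exon of the isoform was the first of the circle in 682 circles (38%), compared with 26.3% among the other hosts, and only 3 began with exon 1 and 2 ended with the last exon. Exon 1 has no upstream splice acceptor, so few circles begin with it. In the named isoform, coding sequence filled 1346 circles (74.9%), made up part of 352 and was absent from 98. The mean length of the 2 flanking introns had a median of 5.07 kb, against 8.03 kb for the other hosts, and the isoforms of single-circle hosts had fewer exons (medians 12 and 20). These are descriptions of both sets, whose ranges overlap widely, and the differences were not tested. Exons of another gene on the same strand lay over 48 of the circles and on the opposite strand over 58, and the reads there are uncertain.

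The abundance of the circles covered more than 4 orders of magnitude. Levels are given as CPM, the count scaled to the library total with TMM factors over the 15 mice. The median circle had a mean of 31.8 CPM (quartiles 12.4 and 75.2), and the range was from 0.0809 to 3257 CPM. Circles of other hosts had a median of 40.3 CPM. Per length, the order was reversed, with a median of 12.6 FPKM for single-circle hosts and 10.8 FPKM for the others. The 10 circles with the highest CPM were led by Hspa8, a constitutive heat shock chaperone (3257 CPM), Ugt3a2, a UDP-glycosyltransferase (1913), Atp5b, the beta subunit of mitochondrial ATP synthase (1877), Msi2, an RNA-binding protein (1533), and Pck1, the rate-limiting enzyme of gluconeogenesis (1441). They were followed by Selenop, the plasma selenium carrier (1268 CPM), Cat, catalase (1108), Lamp1, a lysosomal membrane protein (1033), Ass1, an enzyme of arginine synthesis (985), and Ugt2b38, a UDP-glucuronosyltransferase (957). Among these 10 circles, Hspa8 and Ugt3a2 were lower at 24 than at 3 months, and the others did not pass the test at 24 against 3 months.

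Most circles were below 3 times the level of the linear host, and a small set stood far above it. Of the 1801 circles, 465 had a mean circular FPKM below the host, 1056 lay between 1 and 3 times the host, 236 between 3 and 10 times, and 44 at 10 times or more. Per mouse, between 41 and 58 circles were at 10 times the host or more. To leave out low values and shared exons, the 1274 circles with a mean count of at least 100, all exons matched and no exon of another gene over them were ranked by this ratio, and 29 of these were at 10 times the host or more. These circles were picked from their values and carry no test. FPKM is scaled by length, and the circles named next held from 142 exonic bases (Msi2) to 642 (Cpped1). Only Bach2 (511), Fam172a (544) and Cpped1 exceeded the median of 501.5 bases. The part of length in these ratios was not tested.

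Arhgap15, a GTPase-activating protein of blood cells, had the highest ratio. Its 3-exon circle was at 196 FPKM and the ratio of the means was 85.3, while the host was at 1.80 ± 0.719, 2.38 ± 1.21 and 2.72 ± 0.700 FPKM (mean ± SD, n = 5) at 3, 12 and 24 months. Msi2 followed among the annotated protein genes with a 142-base circle of 2 exons at 2683 ± 469, 2205 ± 193 and 2081 ± 150 FPKM, and a host at 44.3 ± 3.92, 38.7 ± 4.62 and 37.8 ± 4.22 FPKM. Bach2, a transcription factor of lymphocytes, had a ratio of 57.5, and its circle of exons 2 to 4 was at 230 FPKM. The next named hosts were Map2k5, a MAP kinase kinase (ratio 35.6), Chka, a choline kinase (28.3), Fam172a (24.2), Atg10, an enzyme of autophagosome formation (21.8), Rnf169, a ubiquitin ligase of DNA repair (21.1), and Cpped1 (20.2). The same ranking held the predicted genes Gm21989 (68.2) and Gm7854 (22.6) and 5730522E02Rik (17.2), whose mean host levels were below 2 FPKM at every age. Qk, an RNA-binding protein that promotes circle formation, hosted a circle of exons 2 to 4 at 16.3 times its linear level.

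**Figure D1:**
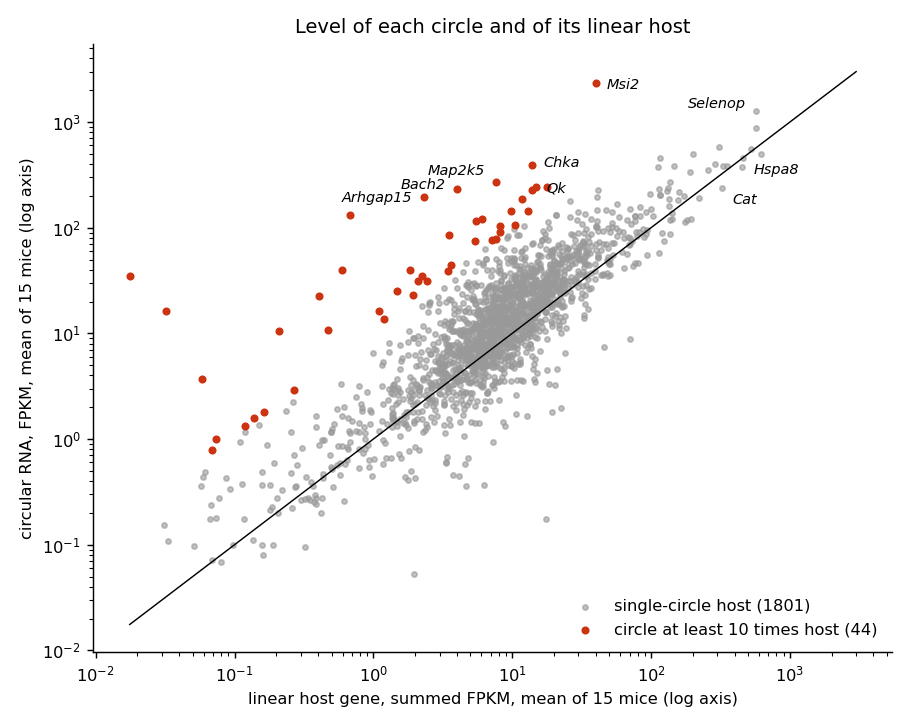
Each point is 1 of the 1801 circles, with the mean summed FPKM of the linear host over 15 mice on the horizontal axis and the mean circular FPKM on the vertical axis, both on log scales; the line marks equal levels. Most points lie along and somewhat above the line, and the 44 red points, among them Msi2, Arhgap15 and Bach2, lie at 10 times the host or more.

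Over the 15 mice, the log2 CPM of a circle and the log2 FPKM of its host correlated with a median r of 0.48 (quartiles 0.23 and 0.69), and r was below 0 for 155 circles. These correlations are descriptive, because both values share a library and the same exons. The median r was 0.51 for circles at 1 to 3 times the host and 0.35 for the 44 circles at 10 times or more.

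The first question was whether the circles differed between old and young kidney. At 24 against 3 months, 248 of 1800 circles tested had an adjusted p under 0.05 (edgeR quasi-likelihood test, Benjamini-Hochberg over all circular RNAs). This was 13.8%, against 13.3% of all 11924 circular RNAs tested. The direction was uneven: 186 circles (10.3%) were higher and 62 (3.44%) lower at 24 months, while among all circular RNAs 6.66% were higher and 6.61% lower. The median log2 fold change was 0.07 over the circles of single-circle hosts and 0.00 over all circular RNAs. The scaling bears on this split, since the TMM factors moved with age (0.950 to 0.996 at 3 months and 1.01 to 1.03 at 24 months). Scaled by library totals only, 333 circles were called, 299 of them higher (89.8%), and with limma on the circular FPKM 206 were called, 126 of them higher (61.2%), against 75% in the edgeR fit. Among all circular RNAs called, the share that was higher was 50.2%, 73% and 34.2% in these 3 fits. Without the 24-month mouse 33, 137 circles were called, and without mouse 31, 153. Over all circular RNAs these fits called 856 and 999, against 1582 with all mice.

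Among the 248 circles called, the median absolute log2 fold change was 0.57 (range 0.24 to 3.40), and 42 changed by more than 1 on the log2 scale. The 5 mice of both ages did not overlap for 167 of the 1801 circles, which was 9.27%, against 10.5% of all circular RNAs. The fold change of the linear host had the same sign for 235 of the 248, and 16 hosts were themselves called. Reads of circle and host over the same exons cannot be told apart, so the agreement of sign was partly built in. It does not show that circles follow the expression of the host. A mean count under 100 held for 57 of the 248. Over all 31850 linear genes tested with limma, 271 were called, or 0.851%, and 20 of the 1801 hosts (1.11%) were among them.

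**Figure D2:**
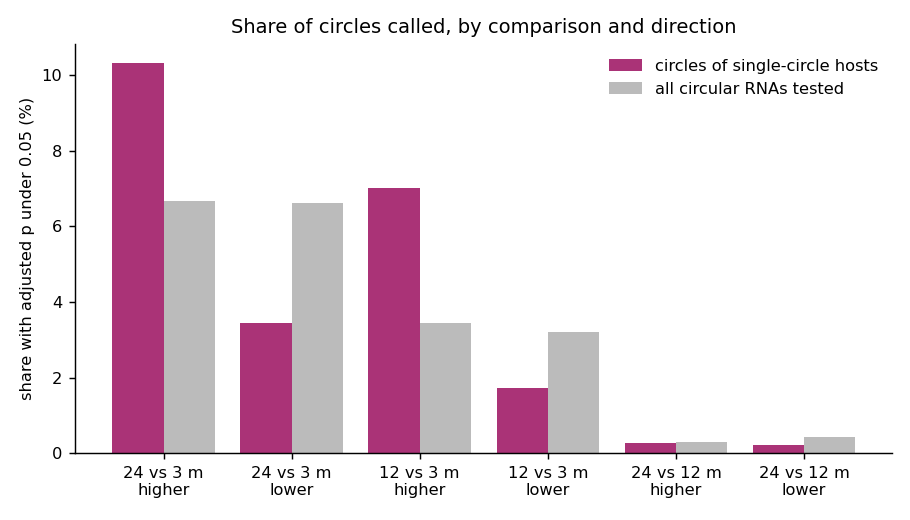
Bars give the percentage of circles with an adjusted p under 0.05 in each comparison (m, months) and direction, for circles of single-circle hosts and for all circular RNAs tested. At 24 against 3 months the share of higher circles was 10.3% against 6.66%, and that of lower circles 3.44% against 6.61%.

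The circles that rose with the smallest p came from 5 hosts. Ano4 encodes a membrane protein of the anoctamin family. The isoform named for its 10-exon circle has no annotated coding sequence there, and other isoforms were not examined for this. The circle was at 12.5, 17.1, 22.5, 18.8 and 13.8 CPM in the 3-month mice. It was at 32.8, 46.4, 45.1, 42.7 and 41.1 CPM in the 12-month mice and at 56.1, 62.2, 68.5, 73.6 and 54.1 CPM in the 24-month mice. The 3 ages did not overlap in any mouse. The log2 fold change at 24 against 3 months was 1.88 ± 0.15 (SE), or 3.69-fold, with an adjusted p of 9.8e-05 in edgeR.

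Brca2, which acts in repair of DNA breaks by homologous recombination, gave a circle of 12 exons and 7738 bases, the longest among the 1796 matched circles. It was at 11.8, 12.8, 13.1, 16.6 and 17.8 CPM at 3 months, at 31.3, 32.6, 31.1, 28.2 and 32.6 CPM at 12 months and at 40.3, 36.9, 42.6, 47.2 and 37.5 CPM at 24 months. Again no mouse of one age reached the range of another. The log2 fold change was 1.5 ± 0.12 at 24 against 3 months (edgeR adjusted p = 9.8e-05), and the linear host rose as well (1.07 ± 0.238, 2.70 ± 0.332 and 2.58 ± 0.517 FPKM at the 3 ages, limma adjusted p = 0.044 at 24 against 3 months).

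Ctnna2, a neural alpha-catenin that links cadherins to actin, had a circle of 8 exons at 2.55 to 6.5 CPM in the 3-month mice, 18.6 to 37.7 CPM at 12 months and 17.2 to 34.9 CPM at 24 months. Both older ages lay above every young mouse and overlapped each other. The log2 fold change at 24 against 3 months was 2.55 ± 0.23 (edgeR adjusted p = 0.00019). In young mice the circular FPKM was below the summed FPKM of the host, at 0.830 ± 0.272 beside 7.26 ± 2.82.

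Syt1 encodes synaptotagmin-1, the calcium sensor of synaptic vesicle release. Its circle was low, at 2.61, 1.31, 1.95, 0.729 and 1.38 CPM at 3 months, at 8.03, 11, 6.55, 9.01 and 8.05 CPM at 12 months, and at 9.31, 7.19, 8.38, 7.23 and 8.24 CPM at 24 months. Every older mouse was above every young one. The log2 fold change at 24 against 3 months was 2.33 ± 0.23 (edgeR adjusted p = 0.00024). Mum1, a chromatin protein with a PWWP domain, had a 12-exon circle at 29.2 ± 3.91 CPM at 3 months, 57.7 ± 11.3 CPM at 12 months and 60.6 ± 5.12 CPM at 24 months (n = 5), a log2 fold change of 1.05 ± 0.10 at 24 against 3 months (edgeR adjusted p = 0.00024).

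The circle that fell with the smallest p was that of Npas2. NPAS2 is a transcription factor of the circadian clock that pairs with BMAL1. The circle of exons 3 to 5 was at 47.4, 44.2, 19.8, 31.5 and 37.8 CPM in the 3-month mice, at 8.45, 6.66, 6.76, 11.6 and 12.7 CPM at 12 months and at 4.55, 1.7, 2, 3.45 and 6.64 CPM at 24 months. Every 3-month mouse was above the older mice, and the older ages met, with 6.64 CPM in 1 old mouse and 6.66 CPM in 1 middle-aged mouse. The circle fell by 3.28 on the log2 scale (SE 0.31, edgeR adjusted p = 0.00020), or 9.69-fold. The host fell as well, from 5.07 ± 1.57 to 0.523 ± 0.325 FPKM (limma adjusted p = 0.012).

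Slc16a1, the lactate and pyruvate transporter MCT1, followed. Its 2-exon circle lay between 53.6 and 75.9 CPM at 3 months, 22.6 and 44.8 CPM at 12 months and 13.6 and 25.9 CPM at 24 months, and fell by 1.61 on the log2 scale at 24 against 3 months (SE 0.16, edgeR adjusted p = 0.00029). Its host was at 16.3 ± 3.16, 9.32 ± 1.96 and 5.45 ± 1.64 FPKM, and the difference of circle and host was not called.

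The Hspa8 circle was at 4768, 4402, 5256, 4759 and 5469 CPM in the 3-month mice, at 2861, 2705, 3381, 3000 and 2041 CPM at 12 months and at 2102, 2853, 1862, 1789 and 1604 CPM at 24 months. Every young mouse was above every older mouse. The circle fell by 1.27 on the log2 scale (SE 0.15, edgeR adjusted p = 0.00047). The host had nearly the same level and course per length, at 728 ± 114, 370 ± 55.6 and 276 ± 83.5 FPKM beside a circle at 712 ± 56.6, 387 ± 67.6 and 283 ± 68.1 FPKM.

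Nt5e, the ecto-enzyme CD73 that makes adenosine from AMP, gave a 2-exon circle at 78.3 ± 10.1, 46.8 ± 11.2 and 31.6 ± 8.69 CPM at the 3 ages (fell by 1.31 on the log2 scale at 24 against 3 months, edgeR adjusted p = 0.00061). The Chka circle, at 28.3 times its host, was at 1048, 576, 854, 847 and 1026 CPM at 3 months and between 451 and 510 CPM at 24 months, without overlap. It fell by 0.86 on the log2 scale (SE 0.14, edgeR adjusted p = 0.0025), and its host was at 19.3 ± 4.68 FPKM at 3 months and 10.1 ± 1.81 FPKM at 24 months (limma adjusted p = 0.056).

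**Figure D3:**
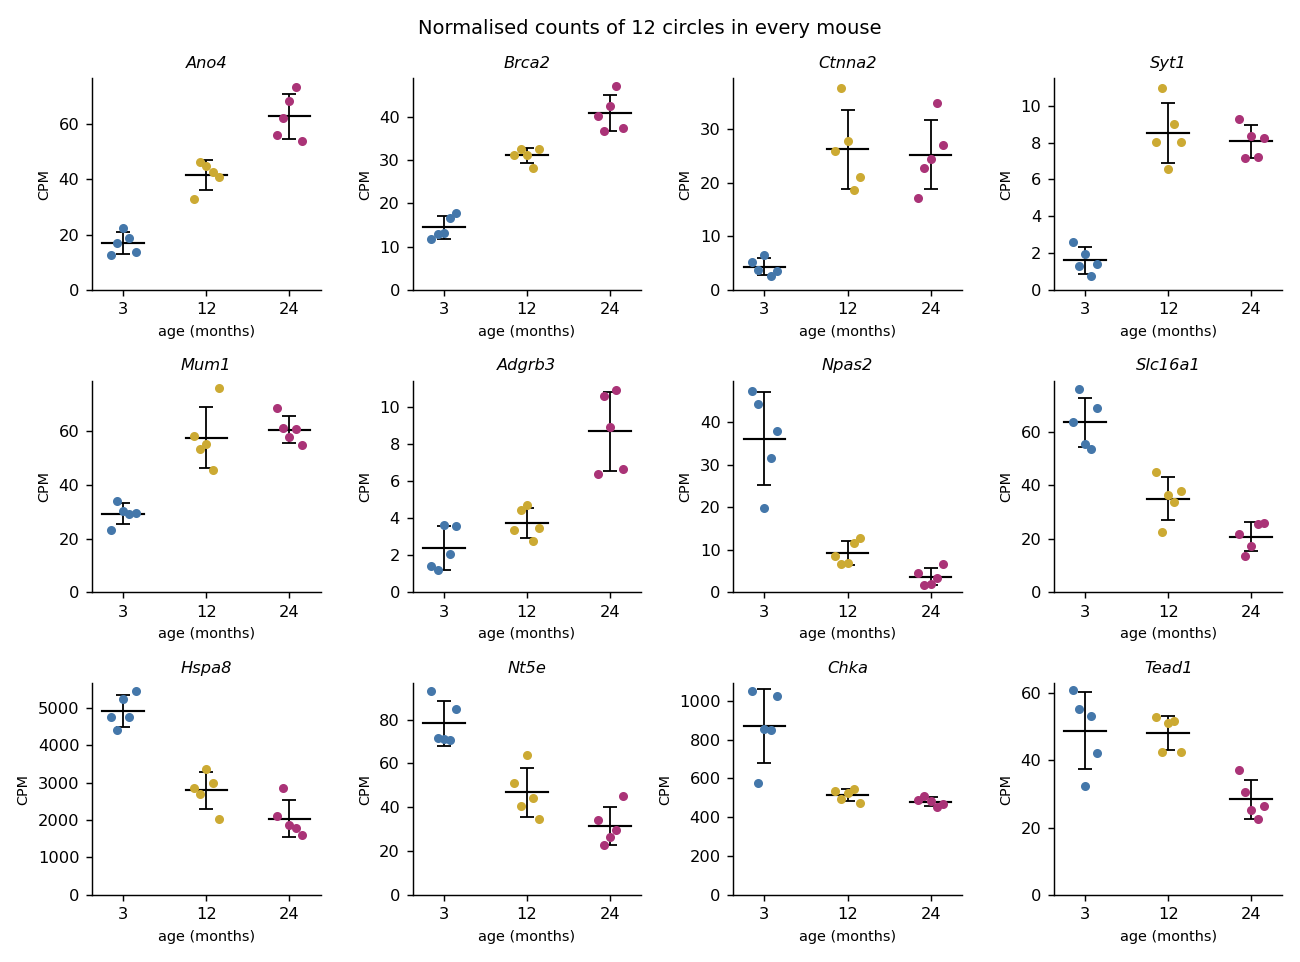
Each panel gives the CPM of 1 circle in every mouse against age in months, with the mean of 5 mice as a horizontal line and the SD as a bar, on axes from 0. Ano4 and Brca2 form 3 separate levels, Ctnna2, Syt1 and Mum1 step up between 3 and 12 months, Adgrb3 is highest at 24 months, and the other 6 fall.

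The calls were split by the number of exons. Among 146 circles of 1 exon, 5 were higher and 10 lower at 24 months. Among 456 circles of 2 exons, 28 were higher and 17 lower, among 644 circles of 3 to 4 exons 76 and 22, and among 555 circles of 5 or more exons 77 and 13. The groups differed in abundance too (medians of 14.9, 17.5, 30.6 and 62.9 CPM). Split by abundance, the 451 circles with the lowest CPM had 54 higher and 6 lower, the next 450 had 57 and 15, the third group of 450 had 37 and 19 and the 450 with the highest CPM 38 and 22. The median log2 fold change was 0.20, 0.09, 0.05 and -0.01 over these groups, and depth, which was lower at 3 months, moved with it. The part of depth in this pattern was not tested. Neither split was made over all circular RNAs, so the counts do not show whether the pattern is particular to single-circle hosts.

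The middle age was compared with the young age in the same way. At 12 against 3 months, 157 of 1800 circles were called (8.72%, against 6.63% of all circular RNAs), 126 higher (7%, against 3.44%) and 31 lower (1.72%, against 3.2%). The ages of the mice did not overlap for 141 circles, or 7.83%, against 8.04% of all circular RNAs. The 3-month mice are shared by both comparisons, so their values are given side by side and not as independent evidence. The circles with the smallest p that rose were Ctnna2 (log2 fold change 2.61 ± 0.24, edgeR adjusted p = 0.00062), Syt1 (2.40 ± 0.25, adjusted p = 0.0010) and Brca2 (1.11 ± 0.12, adjusted p = 0.0010). At 24 against 12 months the Ctnna2 and Syt1 circles had log2 fold changes of -0.06 ± 0.20 and -0.08 ± 0.14, and neither passed the test.

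The circles that fell with the smallest p at 12 months were Npas2 (-1.98 ± 0.24, edgeR adjusted p = 0.0021), Arrdc3, an arrestin-domain adaptor of receptor trafficking (-0.98 ± 0.16, adjusted p = 0.0085), and Kpna1, an importin of nuclear transport (-0.59 ± 0.09, adjusted p = 0.0085). The Arrdc3 circle is a single exon and was at 64.4, 62.6, 54.9, 59.4 and 48.7 CPM at 3 months, and at 24.5, 27.0, 27.4, 44.7 and 24.0 CPM at 12 months, with mouse 20 nearest to the young mice. The Kpna1 circle lay between 18.9 and 23.8 CPM in young mice and between 13.7 and 16 CPM at 12 months, without overlap. DESeq2 called 236 circles at 12 against 3 months, and limma on the circular FPKM 113, of which 69.9% were higher, against 80.3% in edgeR. Leaving out a single mouse moved the edgeR count as far as 69 (without mouse 19 or mouse 21 of 12 months), 78 (without the 3-month mouse 8) and 94 (without the 12-month mouse 18). Over all circular RNAs edgeR called 791 with all mice and DESeq2 1239. Without the 12-month mouse 19, 21 or 18 edgeR called 308, 377 and 405, and without the 3-month mouse 8 it called 323.

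Between 12 and 24 months few circles differed. In edgeR, 9 of 1800 were called (0.5%, against 0.738% of all circular RNAs), 5 higher (0.278%, against 0.31%) and 4 lower (0.222%, against 0.428%), and 303 had an unadjusted p under 0.05 (16.8%, against 16.9%). The number depended on single mice and on the tool. It was 0 without the 24-month mouse 33, 1 or 2 without the 12-month mice 17, 19 or 20 or the 24-month mouse 34, 36 without the 12-month mouse 21 and 34 without the 24-month mouse 32. DESeq2 called 47, and a fit of all 15 mice called 0. The calls over all circular RNAs moved too, from 88 in edgeR to 418 in DESeq2 and 0 in the fit of all 15 mice. They were 0 without the 24-month mouse 33, 390 without the 12-month mouse 21 and 239 without the 24-month mouse 32.

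Adgrb3, an adhesion receptor of synapses, rose with the smallest p among the 5. Its circle was at 3.38, 4.44, 4.71, 2.76 and 3.45 CPM at 12 months and at 6.39, 10.6, 8.88, 10.9 and 6.64 CPM at 24 months (log2 fold change 1.19 ± 0.19, edgeR adjusted p = 0.020). Abhd6, a lipase of endocannabinoids, changed less but with little spread, from 57.5 ± 1.85 to 74.1 ± 4.52 CPM (0.36 ± 0.06, adjusted p = 0.021), and the 3-month mice spread over both, at 40.5 to 83.7 CPM. The Ano4 circle rose further (0.59 ± 0.11, adjusted p = 0.023), as did Brca2 (0.39 ± 0.08, adjusted p = 0.049). Cry1, a repressor of the circadian clock, was the fifth (1.24 ± 0.24, adjusted p = 0.035), and was named because its value was seen. Its mean was 15.5 ± 11.2 CPM at 3 months, 6.04 ± 1.69 CPM at 12 months and 14.4 ± 5.14 CPM at 24 months.

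Tead1, the DNA-binding partner of YAP in Hippo signalling, had a circle of exons 5 to 8 at 52.8, 42.4, 51.1, 51.7 and 42.6 CPM at 12 months and at 37.2, 30.5, 25.3, 22.6 and 26.3 CPM at 24 months, without overlap. It fell by 0.77 on the log2 scale (SE 0.12, edgeR adjusted p = 0.020), while the host was at 23.8 ± 1.93 and 23.2 ± 2.53 FPKM. Zc3h12c, an RNase of the Regnase family (fell by 0.61, adjusted p = 0.020), and Adh1, an alcohol dehydrogenase of ethanol and retinol (fell by 0.44, adjusted p = 0.036), were lower too. Exons of Gm16559 lie on the opposite strand of the Adh1 circle.

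Tested for a difference between any ages, 275 of 1801 circles were called (15.3%, against 14.4% of all circular RNAs). Their means rose over 3, 12 and 24 months in 121, fell over all 3 in 42, were highest at 12 months in 83 and lowest at 12 months in 29. Over all 1801 circles these courses held for 455, 273, 746 and 327.

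Taken as a sum, the circles of single-circle hosts made up between 12.4% and 14.2% of the circular counts of a mouse. The share was 13 ± 0.429% at 3 months, 13.5 ± 0.421% at 12 months and 13.3 ± 0.222% at 24 months (n = 5). At 24 against 3 months the difference was 0.347 percentage points (2-sided exact permutation test over 252 assignments, p = 0.159). Without the 3-month mouse 9 it was 0.483 points (exact permutation test, p = 0.0476). The 12-month mouse 21 had the highest share of all, 14.2%. The counts of all circular RNAs fell as a share of the library total, from 22.7 ± 1.60% to 20.6 ± 0.294% (exact permutation test, p = 0.00794, the smallest this design allows), with the 3-month mouse 8 at 25.5% and the other young mice between 21.3% and 22.3%, above the highest 24-month mouse at 20.96%.

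The second question was which circles moved apart from the linear host. For this, the log2(CPM + 1) of a circle minus the log2(FPKM + 1) of its host was compared between ages with limma. At 24 against 3 months 11 of 1798 circles were called (0.612%, against 0.528% of all circular RNAs), 9 of them higher relative to the host and 2 lower. At 12 against 3 months 9 of 1800 were called (0.5%, against 0.52%), 6 higher and 3 lower. At 24 against 12 months limma called 0 of 1799, as it did among all circular RNAs (0%), and 148 had an unadjusted p under 0.05 (8.23%, against 8.22%). These shares were near those of all circular RNAs, and the calls were unstable. With a pseudocount of 0.1 in place of 1, 3 and 5 circles were called, and with the host measured over the circle's own exons only, an alternative chosen after the data were seen, 5 and 2. Leaving out 1 mouse gave 12 calls at 24 against 3 months without the 24-month mouse 32, and between 1 and 6 without each of the others. At 12 against 3 months it gave 0 calls without the 12-month mouse 17 or 18 and between 2 and 8 without each of the others. Over all circular RNAs the fits with 1 mouse left out gave 3 to 78 calls at 24 against 3 months and 0 to 63 at 12 against 3 months.

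**Figure D4:**
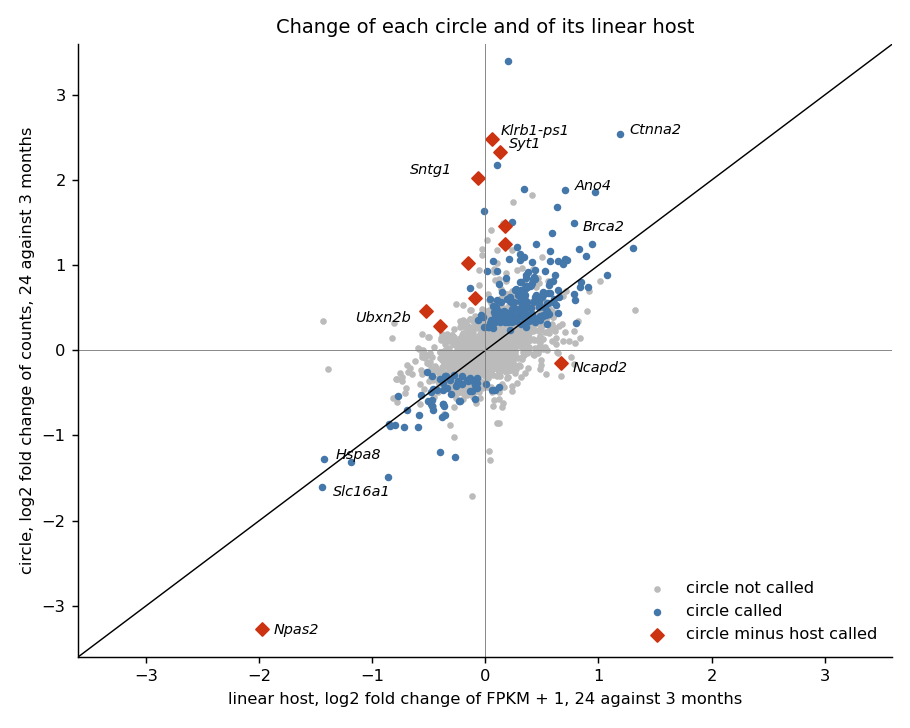
Each point is 1 circle, with the log2 fold change of the linear host (FPKM + 1) on the horizontal axis and that of the circle (counts) on the vertical axis, both at 24 against 3 months; the line marks equal change. Most called circles lie in the quadrants where both move together, and the diamonds, among them Syt1, Sntg1, Ubxn2b, Ncapd2 and Npas2, were called for the difference of circle and host.

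Syt1 gave the smallest p. Its circle rose 5.03-fold while its host was barely detected, at 0.0402 ± 0.0248 FPKM at 3 months, 0.177 ± 0.0662 FPKM at 12 months and 0.140 ± 0.0596 FPKM at 24 months. The host means were thus higher in older mice too, and a pseudocount of 1 hides most of such a change. The difference of circle and host was 1.71 (limma adjusted p = 0.0048) at 24 against 3 months and 1.72 (adjusted p = 0.014) at 12 against 3 months, and 1.61 (adjusted p = 0.058) and 1.47 (adjusted p = 0.085) with a pseudocount of 0.1. Measured over the circle's own exons it was 0.84 (adjusted p = 0.0094) and 0.89 (adjusted p = 0.048).

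Several of the other circles called higher relative to the host had low hosts. Sntg1, a syntrophin of the nervous system, had a 3-exon circle at 0.784, 0.785, 1.30, 0.486 and 0.690 CPM at 3 months, at 4.65, 10.3, 7.27, 4.07 and 2.30 CPM at 12 months and at 3.68, 2.61, 4.63, 2.91 and 2.86 CPM at 24 months. Every older mouse was above every young one, and the host was at 1.11 ± 0.440, 1.72 ± 0.694 and 1.01 ± 0.457 FPKM. The difference was 1.32 (limma adjusted p = 0.039) at 24 against 3 months and 1.42 (adjusted p = 0.017) at 12 against 3 months. With a pseudocount of 0.1 these were 2.07 (adjusted p = 0.068) and 1.98 (adjusted p = 0.022), and over the circle's own exons 0.91 (adjusted p = 0.020) and 1.34 (adjusted p = 0.11).

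Klrb1-ps1, a pseudogene of a natural killer cell receptor, rose from 0.500 ± 0.286 to 2.83 ± 1.02 CPM with a host at 0.0299 ± 0.0547 and 0.0695 ± 0.0470 FPKM (difference 1.28, limma adjusted p = 0.027). As a pseudogene it has close relatives, and the assignment of its reads is uncertain. Pcdh11x, an X-linked protocadherin, rose from 0.985 ± 0.257 to 2.75 ± 0.179 CPM (0.75, adjusted p = 0.031), but its difference over the circle's own exons was 0.01 (adjusted p = 0.95). Mfsd13b, a putative membrane transporter, rose from 4.32 ± 1.18 to 8.77 ± 1.90 CPM (1.03, adjusted p = 0.039) while its host was at 0.896 ± 0.869 and 0.603 ± 0.143 FPKM. Called higher at 24 against 3 months were also Slc2a13, a myo-inositol transporter (0.89, adjusted p = 0.040), Mtrr, methionine synthase reductase (0.68, adjusted p = 0.040), and AI597479 (0.96, adjusted p = 0.039). Over the circle's own exons Mfsd13b had a difference of 0.33 (adjusted p = 0.33), and with a pseudocount of 0.1 its adjusted p was 0.14. Over their own exons the last 3 had differences of 0.80 (adjusted p = 0.13), 0.32 (adjusted p = 0.63) and 0.59 (adjusted p = 0.44).

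Ubxn2b, an adaptor of the ATPase p97, differed from these in that its host was well measured. The circle was at 16.3, 18.7, 16.7, 23.2 and 20.8 CPM at 3 months and at 25.6, 18.2, 26.8, 24.8 and 21.7 CPM at 24 months, and the ages overlapped. The host was at 4.70, 5.48, 4.30, 6.08 and 5.64 FPKM at 3 months and at 4.47, 3.39, 4.46, 3.42 and 2.94 FPKM at 24 months. Neither passed a test alone (edgeR adjusted p = 0.16 for the circle, limma adjusted p = 0.18 for the host). The difference was 0.68 (limma adjusted p = 0.022), 0.77 with a pseudocount of 0.1 (adjusted p = 0.027) and 0.61 over the circle's own exons (adjusted p = 0.088). With the top host transcript it was 0.68 (adjusted p = 0.12). Leaving out 1 mouse gave limma adjusted p-values from 0.018 to 0.070.

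Ncapd2, a subunit of condensin that compacts mitotic chromosomes, showed the opposite. Its 8-exon circle was at 45.0 ± 9.02, 42.8 ± 6.41 and 40.5 ± 10.2 CPM at 3, 12 and 24 months. The host was at 1.29, 2.39, 2.24, 2.04 and 2.21 FPKM at 3 months, at 3.13, 4.61, 3.73, 4.07 and 4.28 FPKM at 12 months and at 4.62, 4.76, 2.86, 2.76 and 4.32 FPKM at 24 months, and every older mouse was above the young ones. The difference was -0.83 (limma adjusted p = 0.031) at 24 against 3 months and -0.78 (adjusted p = 0.035) at 12 against 3 months. With a pseudocount of 0.1 it was -1.05 (adjusted p = 0.027) and -1.01 (adjusted p = 0.022), and over the circle's own exons -0.71 (adjusted p = 0.082) and -0.62 (adjusted p = 0.34). With the top host transcript it was -0.58 (adjusted p = 0.27) and -0.50 (adjusted p = 0.32). Leaving out 1 mouse gave limma adjusted p-values from 0.029 to 0.085 and from 0.046 to 0.088.

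The Npas2 circle was called lower relative to its host at 24 against 3 months (-1.07, limma adjusted p = 0.040) and at 12 against 3 months (-0.76, adjusted p = 0.017). The size depended on the pseudocount and on the host measure, and a pseudocount of 1 understates the fall of a host this low. With a pseudocount of 0.1 the differences were -0.26 (adjusted p = 0.71) and -0.53 (adjusted p = 0.16), over the circle's own exons -2.23 (adjusted p = 0.082) and -1.78 (adjusted p = 0.44), and with Ensembl transcripts only -2.17 (adjusted p = 0.051) and -1.66 (adjusted p = 0.39). Circle and host correlated with r = 0.975 over the 15 mice. Gm45193 was called at 12 against 3 months (-0.80, adjusted p = 0.045), but its circle lies over exons of 4930533I22Rik, and over the circle's own exons the difference was 0.08 (adjusted p = 0.92). Spop, the substrate adaptor of a cullin ubiquitin ligase (-0.35, adjusted p = 0.057), and Fbxo30, an F-box protein (-0.53, adjusted p = 0.095), came next at 24 against 3 months and did not pass.

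At 12 against 3 months the other circles called relative to the host were Ano4 (1.33, limma adjusted p = 0.017), Ptger3, a prostaglandin E2 receptor of the tubule (0.57, adjusted p = 0.048), Dnajc12, a co-chaperone (0.62, adjusted p = 0.036), and Clec12a, a myeloid lectin receptor (0.80, adjusted p = 0.046). Over the circle's own exons none of these 4 passed (adjusted p from 0.34 to 0.52). For Ano4 the circle rose from 17 ± 3.99 to 41.6 ± 5.32 CPM while the host was at 1.13 ± 0.764 and 0.959 ± 0.313 FPKM. At 24 months the Ano4 host was at 2.57 ± 1.49 FPKM and the difference at 24 against 3 months was 1.14 (adjusted p = 0.11), or 1.14 over the circle's own exons (adjusted p = 0.018). The Ptger3 circle was at 38.3 ± 1.24 and 37.1 ± 4.38 CPM, with ranges that overlapped, while the host was at 6.99 ± 1.06 and 4.13 ± 0.193 FPKM (limma adjusted p = 0.056 for the host). At 24 against 12 months, the circles with the smallest p relative to the host were Tead1 (-0.72, adjusted p = 0.54) and Rmnd5a (-0.36, adjusted p = 0.54), and Pdia5 (0.37, adjusted p = 0.54) and Brca2 (0.43, adjusted p = 0.54), and none passed.

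**Figure D5:**
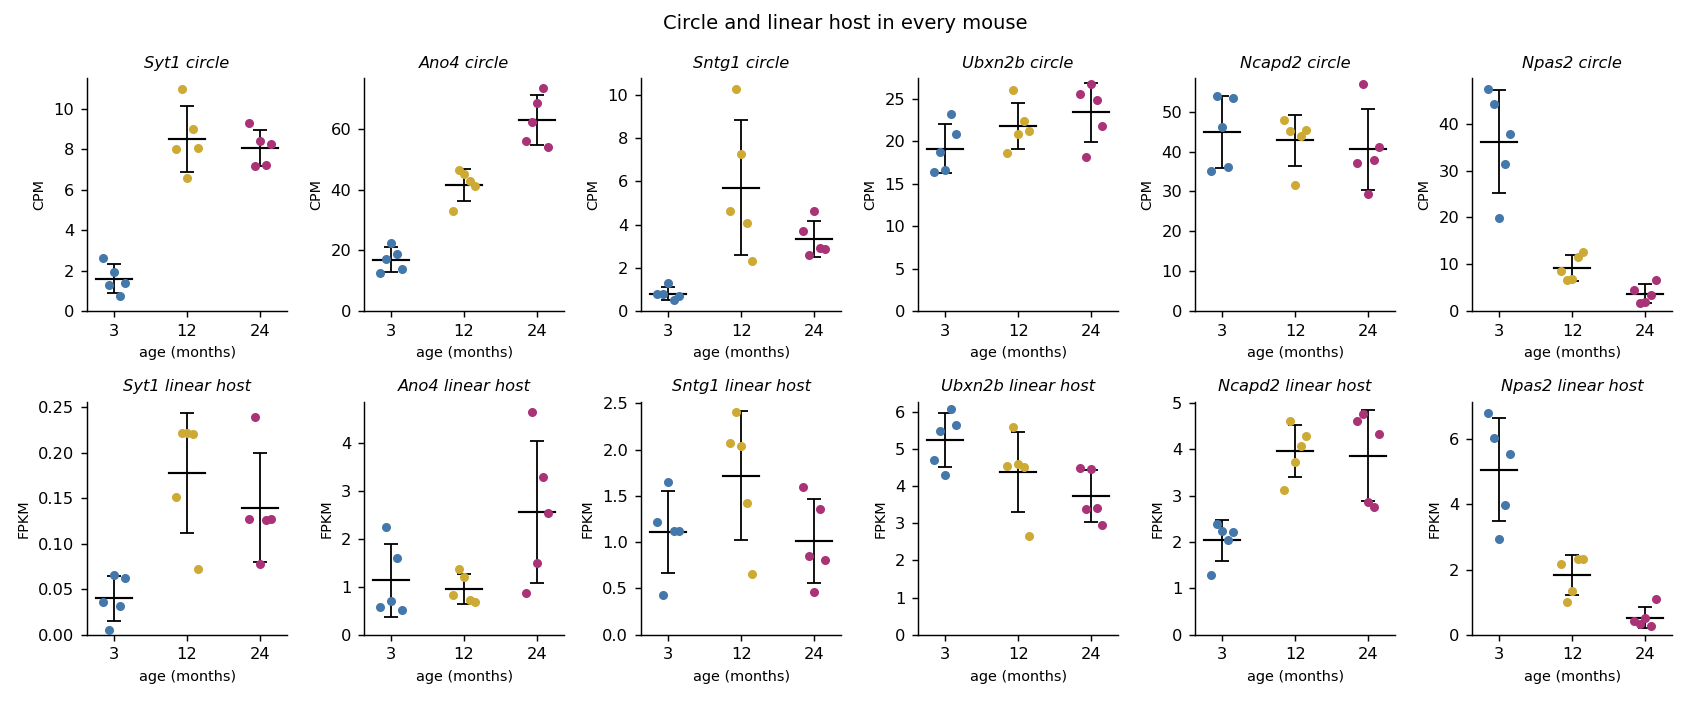
For 6 hosts, the upper panel gives the CPM of the circle and the lower panel the summed FPKM of the linear host in every mouse against age in months, with the mean and SD of 5 mice, on axes from 0. Syt1, Ano4 and Sntg1 circles step up from 3 to 12 months, the Ubxn2b host has its lowest mean and the circle its highest mean at 24 months, the Ncapd2 host is lowest in the 3-month mice while the circle overlaps between ages, and Npas2 circle and host are highest in the 3-month mice.

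Hosts whose circles have been widely studied were rarely single-circle hosts. Of 40 such genes, 32 hosted an exonic circle and 4 hosted exactly 1. At 24 against 3 months 1 of the 4 circles was called higher and 1 lower. Among all circular RNAs 6.66% were higher and 6.61% lower, and 4 circles are too few to compare with these shares. The Foxo3 circle, a single large exon of a stress-response transcription factor, fell from 150 ± 33.4 to 103 ± 10.9 and 89.1 ± 19.5 CPM at 3, 12 and 24 months (-0.76 ± 0.17 at 24 against 3 months, edgeR adjusted p = 0.011). The Rtn4 circle, from the Nogo gene of the endoplasmic reticulum, rose from 37.9 ± 5 to 49.5 ± 2.58 and 51.8 ± 9.69 CPM (0.45 ± 0.13, adjusted p = 0.043). The Qk circle was at 455 ± 41.3, 455 ± 64.5 and 458 ± 8.22 CPM (0.00 ± 0.08, adjusted p = 0.98) beside a host at 18.6 ± 2.64, 13.5 ± 4.27 and 12.5 ± 3.10 FPKM. The circle of Arid1a, a chromatin remodelling subunit, had a log2 fold change of 0.05 ± 0.12 (adjusted p = 0.83).

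Few of the kidney and cell-type genes listed for this report were single-circle hosts. The circles of those few mostly did not pass the test at 24 against 3 months. Other kidney genes among the hosts were not counted. Among all circular RNAs tested 6.66% were higher and 6.61% lower, and the sets here are too small to compare with these shares. Of 5 circles of tubule transport genes 1 was lower, that of Slc16a1, and the median log2 fold change was -0.22. The others included those of the sodium-hydrogen exchanger Slc9a3 (0.06), the thiazide-sensitive transporter Slc12a3 (0.15) and the proton pump subunit Atp6v1a (-0.30). Of 2 circles of glomerular and matrix genes, Col4a1, the type IV collagen chain of basement membranes, fell by 0.63 on the log2 scale (edgeR adjusted p = 0.023), and the podocyte phosphatase Ptpro had -0.06. Of 5 circles of chromatin genes, the Tet2 circle, a single exon of a DNA demethylase, fell by 0.65 (adjusted p = 0.045), and Arid1a, Arid2, Jarid2 and Hdac9 did not pass.

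Circles of immune genes had a median log2 fold change of 0.43, and edgeR called 0 of 5, against 13.3% of all circular RNAs. An unadjusted p under 0.05 held for 1 of the 5, that of Bach2, against 28.8% of all circular RNAs. The log2 fold changes of the immune circles were 0.43 for Arhgap15, 0.68 for the T-cell gene Themis, 0.44 for the adaptor Fyb (with Gm2245 on the opposite strand), -0.09 for the B-cell factor Ebf1 and -0.31 for Bach2. Of 4 leukocyte marker genes compared by their linear RNA, 0 passed in limma: the log2 fold change was 0.85 for Ptprc (adjusted p = 0.23), 2.31 for Igkc (adjusted p = 0.084), 0.49 for Cd74 (adjusted p = 0.54) and -0.11 for Cd68 (adjusted p = 0.83). In bulk tissue more cells of a type and more RNA per cell cannot be told apart. The endothelial circles of Emcn (0.43) and Eng (-0.27) and the ubiquitin ligase circle of Wwp2 (-0.01) did not pass.

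Genes that act in the making, export and decay of circles were compared by their linear RNA. Of 31 such genes tested, 0 were called at 24 against 3 months in limma (0.851% of all linear genes were), and 10 had an unadjusted p under 0.05 (32.3%, against 14.1% of all linear genes). The median log2 fold change was 0.06, against 0.02 over all 31850 genes. The circle-promoting Qk had -0.55 ± 0.15 (adjusted p = 0.13), and the RNA editing enzyme Adar, which edits the paired introns that favour circles, had 0.37 ± 0.16 (adjusted p = 0.33). The debranching enzyme Dbr1 had 0.39 ± 0.17 (adjusted p = 0.34).

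Of these genes, 8 were single-circle hosts themselves. Of the 8 circles, 1 was called at 24 against 3 months and 1 at 12 against 3 months. Among all circular RNAs the shares called were 13.3% and 6.63%, and 8 circles are too few to compare with them. The circle of Eif2ak2, the kinase PKR that circles are known to bind, rose from 75.3 ± 15 to 112 ± 26.8 CPM (0.57 ± 0.17 at 24 against 3 months, edgeR adjusted p = 0.039), with a host at 4.74 ± 1.01 and 7.11 ± 2.16 FPKM (limma adjusted p = 0.29). The Adar circle rose at 12 against 3 months (0.38 ± 0.10, adjusted p = 0.042) and had 0.40 ± 0.16 at 24 against 3 months (adjusted p = 0.13). The circles of Qk, Rbm20, Ddx39b, Ythdf2, Ythdc1 and Dis3 did not pass in either comparison.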

How the data were processed

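Per the labels, kidney RNA of 15 mice was depleted of ribosomal RNA and sequenced from stranded libraries, 1 per mouse, whereas the study's methods describe oligo(dT) selection for lncRNA and mRNA. For linear RNA, per the study's methods, adapters were removed with Cutadapt, alignment used Bowtie2 and HISAT2 with GRCm38 and Ensembl 88, and StringTie assembled transcripts. The authors deposited FPKM values and mean per-base coverage (a signal) of these transcripts. The submitters' processing notes also name TopHat and TopHat2. The authors deposited an estimated count and an FPKM for each circular RNA, and the tool that called and counted the circles is not given in the sources used here. A library total was recovered from count, exonic length and FPKM. The coverage was used for depth only, which was 5.03 to 8.03 Gb of aligned bases per mouse.

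The circles were the exonic entries whose host name occurs once. The members, lists and rules were chosen with earlier results of these data known. Counts were rounded and tested with edgeR 4.0.16 (quasi-likelihood, TMM, entries above 0 in at least 5 mice, only mice of the ages compared, R 4.3.3), with Benjamini-Hochberg adjustment over all circular RNAs at 0.05. Host levels are FPKM summed over the transcripts of a gene. Linear genes, on log2(FPKM + 1), and circle minus host, on log2(CPM + 1) minus log2(FPKM + 1), were tested with limma 3.58.1, so changes of low hosts are understated. Adjusted p-values in the report come from edgeR for circles and from limma for linear genes and for circle minus host. Summed shares were compared with exact permutation tests (scipy 1.17.1). DESeq2 1.42.0, other scalings, filters, pseudocounts and host levels were alternatives, and each mouse was left out in turn. Named circles were the 10 most abundant, those with the smallest p in each direction (5 at 24 against 3 months and 3 in the other comparisons; for circle minus host 5 and 2), and members of the gene lists. Circles far above their host, the other calls relative to the host, a further call at 24 against 12 months and circles of processing genes were named after their values were seen, and some single-gene results are not reported here. On simulated data for 24 against 3 months, with 200 features changed by 1 on the log2 scale, edgeR recovered 191 with 12 other calls among 11923 circular RNAs, limma 156 with 6 others for circle minus host among 11921, and limma 124 with 6 others among 31850 linear genes. In the simulation all circles had the same dispersion and the hosts varied independently of them. Changes were placed only in features above a minimum level. The recovery therefore does not describe circles that share reads with the host, or hosts near 0. Exons and junction sequences come from GENCODE M21. The mice are separate animals, and the labels give no litter, cage or run.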

Additional observations from a re-analysis of the deposited data

Results flagged for a closer look

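In 5 of the 87 groups of 5 mice examined, over 28 named circles and the summed share, 1 mouse lay far from the other 4 by Dixon's criterion (critical value 0.71). Chance alone marks about 1 in 20 such groups. The share of circular counts taken by single-circle hosts was 14.2% in the 12-month mouse 21, and the next highest 12-month mouse was at 13.3%. The Arrdc3 circle was at 44.7 CPM in the 12-month mouse 20, with the next at 27.4 CPM. The Mfsd13b circle was at 6.37 CPM in the 3-month mouse 7, with the next at 4.28 CPM. The Ncapd2 circle was lowest in the 12-month mouse 19, at 31.6 CPM, with the next at 43.9 CPM. The Spop circle was at 265 CPM in the 3-month mouse 8, with the next at 225 CPM. The cause of these values was not tested.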

How the results depend on the processing

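No paired analysis was possible because the mice of the 3 ages are different animals and share no replicate numbers. The count at 24 against 3 months stayed within 1.5 times of 248 in edgeR, DESeq2 and limma with all other scalings and filters (206 to 333), and ranged from 137 to 274 with 1 mouse left out. At 12 against 3 months DESeq2 called 236, and the counts with 1 mouse left out were 69 to 146. At 24 against 12 months DESeq2 called 47, limma on the circular FPKM 5 and the fit of all 15 mice 0, and the counts with 1 mouse left out were 0 to 36. The count for any age was 199 to 308 with 1 mouse left out. Relative to the host, 24 against 3 months gave 3 calls with a pseudocount of 0.1, 2 with the top host transcript, 7 with hosts and circles of at least 1, 5 over the circle's own exons, and 1 to 12 with 1 mouse left out. For 12 against 3 months these were 5 with a pseudocount of 0.1, 1 with Ensembl transcripts only, 0 with the top transcript, 2 over the own exons, and 0 to 8 with 1 mouse left out. The direction reversed for Gm45193 at 24 against 3 months (0.50 with Ensembl transcripts, 0.0011 with the top transcript, 0.44 over the own exons), for Spop (0.062, 0.13 and 0.032) and for Tead1 at 24 against 12 months with the top transcript (0.26). Among circle processing genes 1 was called with a summed FPKM of at least 1. The summed share differed by 0.199 to 0.483 percentage points with 1 mouse left out, and without the 3-month mouse 9 the exact permutation p was 0.0476. The cause of these shifts was not tested. Library totals alone moved the median log2 fold change of all circular RNAs by 0.08 at 24 against 3 months. Depth limits the circles under a count of 10, which were most frequent at 3 months.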
